A study of Mus musculus with 18 samples.

Results

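The glucuronidation, sulfation and carboxylesterase genes of the mouse liver were taken from the series by symbol: every protein-coding gene whose symbol starts with Ugt1a, Ugt2a, Ugt2b, Ugt3a, Sult or Ces followed by a digit. The rule gave 59 of the 24040 genes in the deposited table, namely 20 UDP-glucuronosyltransferases, 21 sulfotransferases and 18 carboxylesterases. The rule used no measured value, but it was set with earlier results of these data known. Of the 59, 32 reached 1 RPKM in at least 3 of the 18 libraries and were tested, 13 were above 0 somewhere but too low to test, and 14 were listed at 0 in all 18. RPKM is the number of reads scaled to the length of the transcript and to the size of the library.

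UDP-glucuronosyltransferases sit in the endoplasmic reticulum of the hepatocyte and attach glucuronic acid to bilirubin, steroids and drugs. Cytosolic sulfotransferases attach a sulfonate group, taken from the cofactor PAPS, to phenols, amines, steroids and bile acids. Carboxylesterases are serine hydrolases that cleave esters, among them many drugs and stored lipids, and are made in large amounts by liver. The conjugates that result are more soluble in water and leave the cell through export pumps into bile or blood.

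The series holds 18 polyA RNA libraries made from whole livers of wild-type C57BL/6J mice, with 3 libraries in each of 6 groups. The groups were the LF diet, LF with CR, LF with Ex, the HF diet, HF with CR and HF with Ex, where LF and HF are read from general knowledge as low-fat and high-fat, CR as caloric restriction and Ex as exercise. Feeding and treatment started when the mice were 5 weeks old and continued to sampling at 62 weeks. The labels give neither the sex of the mice nor the degree of restriction, and do not say that each library came from 1 animal, so a p-value here speaks only of the spread among these libraries, which may be technical. Libraries are named by group and replicate, and 3 values given for a group are those of replicates 1, 2 and 3. A group level is the mean of its libraries ± SD (n = 3). Each difference is on the log2(RPKM + 1) scale with its SE and comes from 1 limma model of all 18 libraries, with Benjamini-Hochberg adjusted p-values over the 10358 genes tested, and a gene was called at an adjusted p under 0.05.

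The deposited unit carries no read counts, and depth was estimated from the steps between the lowest values. LF 3 was the shallowest library at about 23.6 M reads, LF+CR 2 the deepest at 44.9 M, and the median was 28.03 M. At these depths 1 read on a transcript of 2000 bases was worth at most 0.0212 RPKM. Hepatocyte markers were high in every library, with Ttr between 4393 and 7194 RPKM and Apoa1 between 5638 and 13320 RPKM, although Alb was listed at 0 in 14 of the 18, so a value of 0 in this table can be a failed estimate. Markers of pancreatic acinar cells, of which 12 of 12 were in the table and none was at 0 throughout, reached sums of 2318 RPKM for LF+CR 1 and 397 RPKM for HF+CR 1, followed by LF+Ex 1 at 43.8 RPKM and HF+CR 2 at 38.6 RPKM, with the other libraries at 5.01 to 12.7 RPKM. Bile duct markers, 9 of 9 in the table, summed to 174 RPKM in HF+CR 3, 151 RPKM in LF 2 and 18.4 to 80.2 RPKM in the others, with 88.2% of the sum from Spp1, which other cells make too. Their part in the results was not tested, and the calls that ended without these libraries are named. In whole liver, fewer cells of a type and less RNA per cell cannot be told apart.

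Together the 59 genes summed to 3518 to 5496 RPKM per library, with a median of 4325 RPKM. Carboxylesterases made up most of it, and Ces1c, which encodes a carboxylesterase secreted into mouse plasma, was the most abundant single member with a mean of 1206 RPKM over the 18 libraries, 27.3% of the summed level. The whole UDP-glucuronosyltransferase set summed to 1453 ± 297 RPKM on LF, 1384 ± 156 RPKM with CR and 1241 ± 53.1 RPKM with Ex, and to 1384 ± 118, 1369 ± 170.0 and 1264 ± 59.3 RPKM on HF, HF+CR and HF+Ex. These group sums differed by less than the spread within LF. Single subfamilies were less even. The Ces3 sum was 442 ± 186 RPKM in LF and 92.96 ± 59.95 RPKM in LF+CR, against 579 ± 131 RPKM in HF and 822 ± 293 RPKM in HF+CR. The Sult2 sum was 71.4 ± 42.7 RPKM in LF and 13.2 ± 8.10 RPKM in LF+CR, against 100.4 ± 38.2 RPKM in HF and 121 ± 52.97 RPKM in HF+CR. For both sums LF+CR lay below LF and below HF+CR without overlap, at an exact two-sided permutation p of 0.1, the smallest that 20 splits of 3 against 3 libraries allow. The Ces3 sum was 769 ± 109 RPKM in LF+Ex, above LF and above HF+Ex at 487 ± 69.2 RPKM, without overlap at the same p. Sums of Ugt1a, Ugt3a, Sult1, Ces1 and Ces2 also lay apart in some comparisons.

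**Figure D1:**
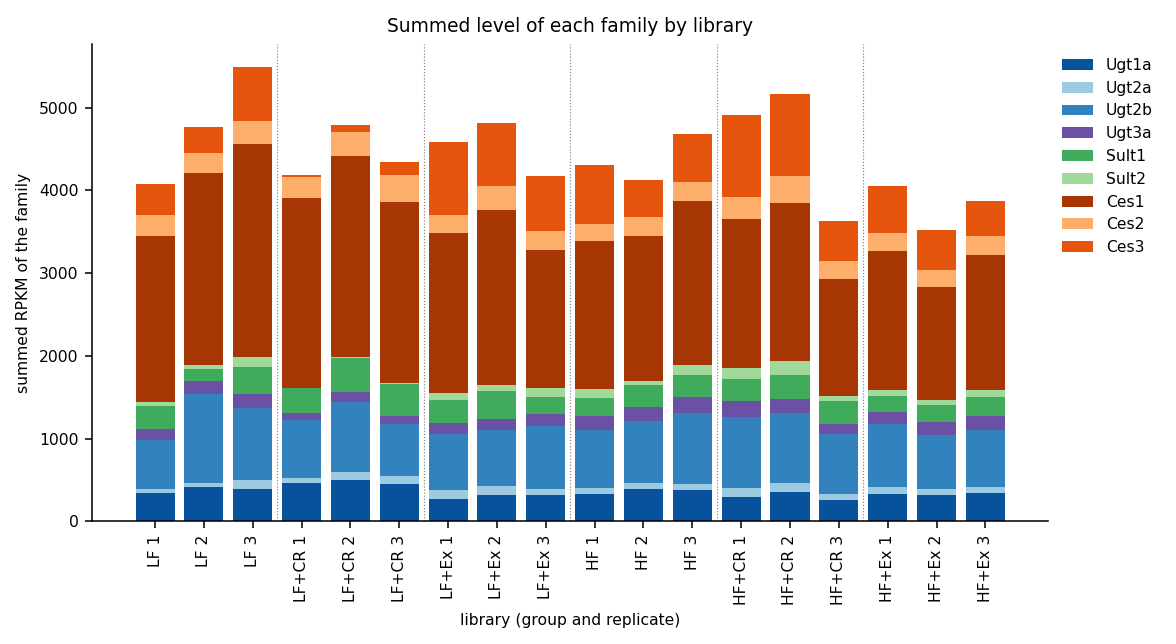
Stacked bars give the summed RPKM of each subfamily in each of the 18 libraries, with dotted lines between the 6 groups. The Ces1 block is the tallest in every library, and the Ces3 block shrinks to between 32.5 and 152 RPKM in the 3 LF+CR libraries against 305 to 994 RPKM elsewhere.

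Among the UDP-glucuronosyltransferases, 13 of 20 were tested. The Ugt1a genes are alternative first exons spliced to common exons on chromosome 1, so reads in the common part cannot be assigned to 1 of them: 58.2% of the 50-base windows of Ugt1a1 and 100% of those of Ugt1a6a occur in another gene, and levels within Ugt1a rest on how the authors' software split these reads. Ugt1a1, the enzyme that conjugates bilirubin, was 171, 217 and 225 RPKM in LF, 289.7, 311 and 235 in LF+CR, 147, 169 and 173 in LF+Ex, 176, 207 and 193 in HF, 163, 206 and 127 in HF+CR, and 174, 168 and 187 in HF+Ex. It was highest in LF+CR, whose 3 libraries lay above all other 15. Ugt1a6a, whose human counterpart conjugates small planar phenols, was 23.9, 29.7 and 27.9 RPKM in LF, 22.1, 27.001 and 24.4 in LF+CR, 21.6, 24.8 and 21.9 in LF+Ex, 24.6, 27.5 and 26.4 in HF, 24.1, 23.98 and 16.04 in HF+CR, and 25.2, 24.5 and 25.5 in HF+Ex. Its 18 values stayed within 16.04 to 29.7 RPKM. Ugt1a9 was 36.99, 81.8 and 16.5 RPKM in LF, 21.8, 35.03 and 30.6 in LF+CR, 11.9, 15.5 and 32.9 in LF+Ex, 13.3, 38.9 and 29.3 in HF, 3.996, 4.51 and 37.3 in HF+CR, and 22.9, 22.2 and 20.3 in HF+Ex. This gene varied more within groups than between them, with LF 2 highest and HF+CR 1 and HF+CR 2 lowest. Ugt1a6b ranged from 74.96 to 111 RPKM, and Ugt1a2, Ugt1a7c and Ugt1a10 reached at most 0.478 RPKM.

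The Ugt2 genes lie in a cluster on chromosome 5. Ugt2b5, the most abundant of them, was 207, 422 and 331 RPKM in LF, 251, 303 and 221 in LF+CR, 269, 249.7 and 273 in LF+Ex, 243, 250.3 and 298 in HF, 299, 312 and 282 in HF+CR, and 255, 219 and 223 in HF+Ex. Of its 50-base windows 41.7% recur in other genes, mainly Ugt2b38. Ugt2b36, second in level, was 170.3, 321 and 255 RPKM in LF, 215, 274 and 209.8 in LF+CR, 172, 221 and 224 in LF+Ex, 231, 252 and 286 in HF, 239, 256 and 224 in HF+CR, and 248, 206 and 226 in HF+Ex. In both genes the widest spread was within LF, where LF 2 was highest and LF 1 lowest. Ugt2a3, the 1 Ugt2a gene with values above 0, was 50.5, 55.6 and 101 RPKM in LF, 61.999, 94.1 and 96.7 in LF+CR, 102, 106 and 74.7 in LF+Ex, 76.3, 65.4 and 78.3 in HF, 105, 113 and 71.2 in HF+CR, and 79.3, 68.5 and 77.6 in HF+Ex. Every group overlapped the others for this gene. Ugt2b34 ranged from 104 to 192 RPKM and Ugt2b35 from 25.4 to 72.6 RPKM. Ugt2b38 was 0, 0.0709 and 0.0227 RPKM in LF, 0, 0 and 0 in LF+CR, 1.49, 0.648 and 0.851 in LF+Ex, 0.0465, 0 and 0 in HF, 0.988, 0.522 and 0.154 in HF+CR, and 0.123, 0.0648 and 0 in HF+Ex. It came above 0.5 RPKM in all LF+Ex libraries and in HF+CR 1 and HF+CR 2 but was too low to be tested, and it shares 37.4% of its windows with other genes. Ugt2b37 reached at most 0.530 RPKM, and Ugt2a1 and Ugt2a2, with 97.03% and 94.5% of their windows shared, were listed at 0 throughout. Of the 2 Ugt3a genes on chromosome 15, whose human relatives use sugars other than glucuronic acid, Ugt3a2 was 99.4, 117 and 109.7 RPKM in LF, 75.4, 96.4 and 78.9 in LF+CR, 90.4, 100.2 and 101 in LF+Ex, 108, 117 and 133 in HF, 133, 119 and 94.5 in HF+CR, and 104, 111 and 111 in HF+Ex. The lowest Ugt3a2 values were those of LF+CR 1 and LF+CR 3.

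Of the 21 sulfotransferases only 7 were tested. Sult1a1, the main phenol sulfotransferase, took 87.8% of the Sult1 sum and was 248, 122 and 291 RPKM in LF, 262, 354 and 342 in LF+CR, 262, 301 and 188 in LF+Ex, 192, 229 and 221 in HF, 231, 256 and 250.1 in HF+CR, and 161, 179 and 194 in HF+Ex. LF 2 was the lowest of the 18 and LF+CR 2 the highest. Sult2a8, which in mice sulfates bile acids, took 98.6% of the Sult2 sum, and Sult2a7 ranged from 0 in HF+CR 3 to 3.54 RPKM in HF+Ex 1. Sult1c2 was lowest in LF 2 at 2.27 RPKM and highest in HF 2 at 8.45 RPKM. Sult5a1 was 0.246, 0.0284 and 0.963 RPKM in LF, 0, 0.119 and 0.0270 in LF+CR, 5.07, 2.37 and 1.395 in LF+Ex, 7.08, 1.26 and 1.80 in HF, 10.8, 1.90 and 1.09 in HF+CR, and 5.06, 2.59 and 2.46 in HF+Ex. It was under 1 RPKM in all LF and LF+CR libraries and above 1 RPKM in the other 12. Estrogen sulfotransferase Sult1e1 was 0, 0 and 0 RPKM in LF, 0.0263, 0 and 0 in LF+CR, 0, 0 and 0 in LF+Ex, 0, 0.124 and 0 in HF, 0.0680, 0 and 0.0622 in HF+CR, and 0, 0 and 0 in HF+Ex. Sult2a1, a hydroxysteroid sulfotransferase that female mice express far more than males, was listed at 0 in all 18, as were Sult2a3, Sult2a4, Sult2a5, Sult2a6, Sult3a2, Sult1c1, Sult4a1, Sult6b1 and Sult6b2. Sult3a1, likewise a female-biased gene in mouse liver, was above 0 in LF+CR 3 alone at 0.0289 RPKM, about the worth of 1 read. Sult2a2 reached at most 0.232 RPKM, in LF+CR 1, and Sult2b1 at most 0.0316 RPKM.

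Of the 18 carboxylesterases, all on chromosome 8, 12 were tested. Ces1c was 1202, 1507 and 1512 RPKM in LF, 1606, 1625 and 1443 in LF+CR, 1171, 1378 and 991 in LF+Ex, 1032, 1046 and 1188 in HF, 1170.4, 1237 and 899 in HF+CR, and 939, 801 and 963 in HF+Ex. Every HF+Ex library was below every LF+CR library. Ces1b was 18.4, 31.1 and 25.8 RPKM in LF, 35.6, 38.6 and 33.98 in LF+CR, 14.6, 26.3 and 19.7 in LF+Ex, 28.2, 28.4 and 31.5 in HF, 26.5, 25.5 and 48.4 in HF+CR, and 32.2, 22.7 and 25.2 in HF+Ex. The LF+CR libraries lay above the LF libraries, and HF+CR 3 was highest. Ces1e was 62.3, 46.4 and 88.3 RPKM in LF, 58.2, 56.9 and 59.3 in LF+CR, 63.2, 58.1 and 65.5 in LF+Ex, 71.4, 63.8 and 78.4 in HF, 86.6, 102 and 52.9 in HF+CR, and 52.3, 55.1 and 58.4 in HF+Ex. Its LF+CR values spanned 56.9 to 59.3 RPKM while LF and HF+CR were spread widely. Ces2e, the most abundant Ces2 gene, was 143, 122 and 137 RPKM in LF, 91.8, 119 and 136 in LF+CR, 97.1, 116 and 118 in LF+Ex, 111, 138 and 135 in HF, 118, 141 and 103 in HF+CR, and 106, 125 and 122 in HF+Ex. Of all pairs of groups LF and LF+Ex alone did not overlap. Ces3b, the second Ces3 gene, was 57.8, 29.9 and 115 RPKM in LF, 21.1, 38.1 and 84.8 in LF+CR, 271, 208 and 97.1 in LF+Ex, 105, 31.9 and 53.2 in HF, 159, 232 and 73.8 in HF+CR, and 88.6, 48.3 and 56.2 in HF+Ex. It was highest in LF+Ex 1 and lowest in LF+CR 1, and 26.1% of its windows recur in Ces3a. Ces4a was above 0.5 RPKM in LF+Ex 1 at 0.589 RPKM and in HF+CR 1 at 0.555 RPKM. Ces4a was listed at 0 in all 3 LF+CR libraries, and Ces1a, Ces2b and Ces2h reached at most 0.109, 0.275 and 0.424 RPKM. Ces2f and Ces5a were listed at 0 throughout.

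**Figure D2:**
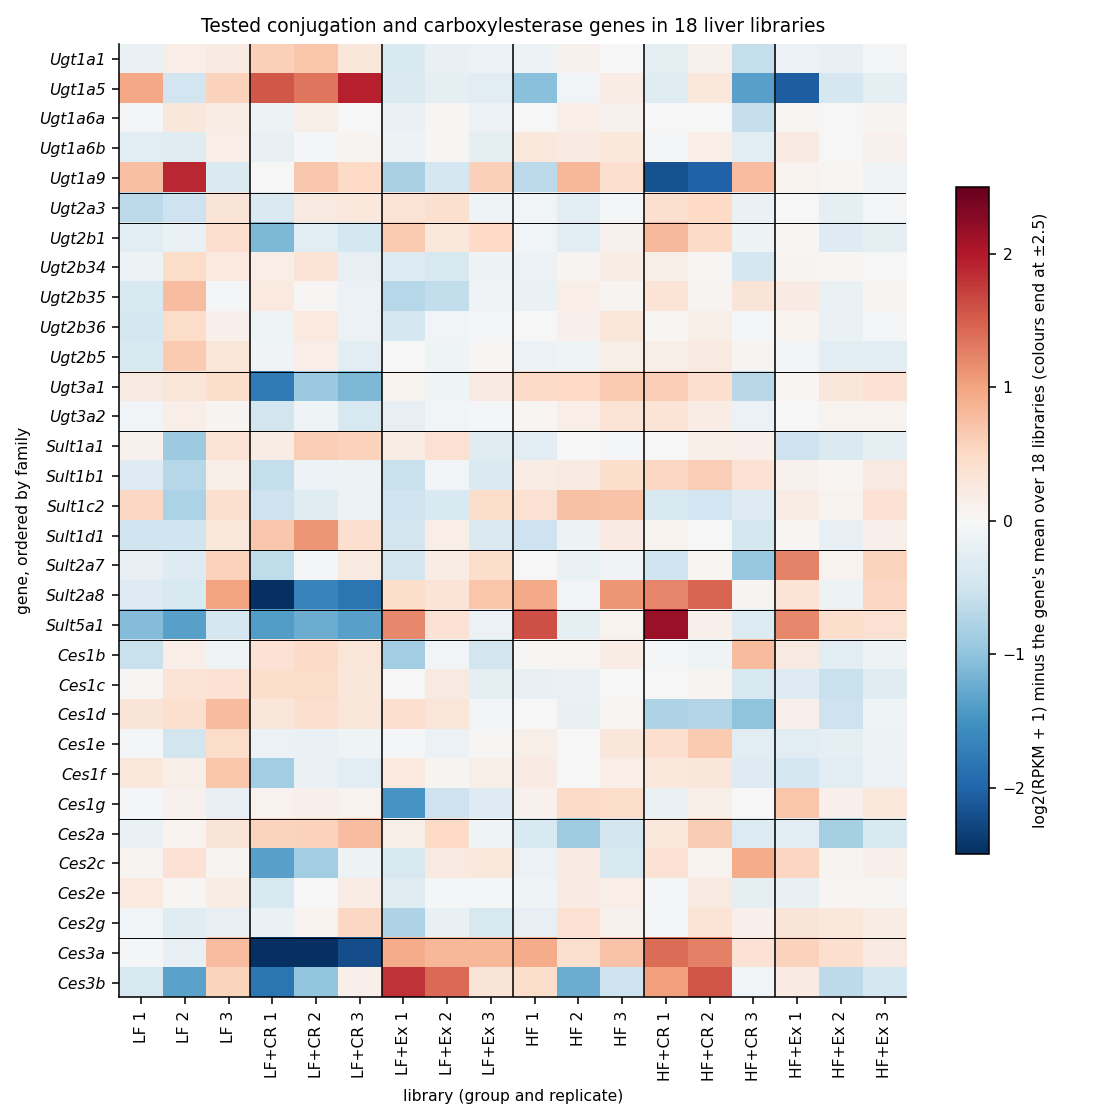
Each row is 1 of the 32 tested members, each column 1 library, and the colour is log2(RPKM + 1) minus the gene's mean over the 18 libraries, ending at 2.5 in both directions. In the 3 LF+CR columns Ces3a, Sult2a8 and Ugt3a1 are blue, and Ugt1a5, Ugt1a1 and Sult1d1 are red.

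The starts of 3 of the genes called below between LF and LF+CR are shown, Sult2a8 and Ugt3a1 lower and Sult1d1 higher in LF+CR. No window of this kind was available for Ces3a and Ces1f, which were called there too. Each sequence runs 5′ to 3′ on the gene's strand from 250 bases before to 50 bases after a RefSeq start on GRCm38.p6. The Sult2a8 window is chr7:14446538-14446837 on the minus strand, the more upstream of 2 RefSeq starts, that of Ugt3a1 is chr15:9279579-9279878 on the plus strand, and that of Sult1d1 is chr5:87568957-87569256 on the minus strand. Capitals mark every match, on either strand, to a TATA motif (TATAAA), a nuclear receptor half-site (AGGTCA), a forkhead motif (TGTTTAC) or a STAT motif (TTCNNNGAA).
Sult2a8: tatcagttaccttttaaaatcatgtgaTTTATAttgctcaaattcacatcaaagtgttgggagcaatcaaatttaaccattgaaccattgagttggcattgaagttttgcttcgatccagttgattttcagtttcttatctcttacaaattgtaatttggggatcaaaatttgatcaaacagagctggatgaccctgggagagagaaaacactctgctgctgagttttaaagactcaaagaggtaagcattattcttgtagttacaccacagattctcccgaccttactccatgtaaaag
Ugt3a1: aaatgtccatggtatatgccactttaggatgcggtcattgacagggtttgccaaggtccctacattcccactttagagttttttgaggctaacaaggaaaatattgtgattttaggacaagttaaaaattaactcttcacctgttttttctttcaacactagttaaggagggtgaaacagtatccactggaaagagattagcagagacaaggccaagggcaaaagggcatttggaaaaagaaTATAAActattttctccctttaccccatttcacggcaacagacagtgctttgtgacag
Sult1d1: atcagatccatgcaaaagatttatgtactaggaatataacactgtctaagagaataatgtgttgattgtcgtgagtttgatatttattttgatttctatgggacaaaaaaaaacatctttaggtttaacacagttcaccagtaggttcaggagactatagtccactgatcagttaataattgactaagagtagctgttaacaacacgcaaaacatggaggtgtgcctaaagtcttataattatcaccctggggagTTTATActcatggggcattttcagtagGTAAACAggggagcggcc

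The Sult2a8 window shown held the TATA motif on its reverse strand, and that of its other RefSeq start, not shown, held 2 nuclear receptor half-sites and the TATA motif on the gene's strand. The Ugt3a1 window held it on the gene's strand. The Sult1d1 window held the TATA and forkhead motifs, both on the reverse strand. Taking the first start per gene, the TATA motif occurred in 14.2% of all 27025 windows of this kind, in 7.21% of the 8276 that belong to tested genes and in 5 of the 26 that belong to tested members. In the same order the shares and the count were 16.04%, 12.9% and 6 for the nuclear receptor half-site, 3.55%, 2.67% and 2 for the forkhead motif, and 8.47%, 6.81% and 1 for the STAT motif. These matches are descriptions of letters and not binding sites.

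With CR on the LF diet 5 of these genes were called. Ces3a, Sult2a8, Ugt3a1 and Ces1f fell and Sult1d1 rose. The 5 genes called are out of 32 tested members, and 6.5% of all tested genes were called, 3.01% higher and 3.49% lower. By family 1 of 13 UDP-glucuronosyltransferases, 2 of 7 sulfotransferases and 2 of 12 carboxylesterases were called. The adipocyte marker sum, 6 of 6 genes in the table, was 1442 to 1853 RPKM in LF+CR against 849 to 1122 RPKM in LF and 372 to 992 RPKM in HF+CR. Pck1, a gluconeogenic gene that hepatocytes express themselves, gave 99.6% of it, and the other 5 genes summed to at most 8.70 RPKM in LF+CR, 3.52 RPKM in LF and 1.12 RPKM in HF+CR. The intestinal epithelium sum, 7 of 7 in the table with Cdx1, Cdx2 and Sis at 0 throughout, was 66.9 to 101 RPKM in LF+CR against 123.3 to 153 RPKM in LF and 112 to 141 RPKM in HF+CR, and Fabp2 gave 89.97% of it. The part of these sums in the results was not tested. The median log2 difference was -0.13 over the members and 0.00 over all tested genes.

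Ugt3a1 (chr15:9279822-9315038), a relative of the glucuronosyltransferases that in humans transfers N-acetylglucosamine, was 44.3, 46.9 and 51.7 RPKM in LF, 10.4, 19.3 and 16.9 in LF+CR, 40.5, 35.3 and 43.9 in LF+Ex, 52.8, 53.7 and 59.8 in HF, 58.4, 50.9 and 23.2 in HF+CR, and 39.2, 46.3 and 49.2 in HF+Ex. Each LF+CR value was below every value of any other group, the nearest being HF+CR 3. The mean was 3.07-fold lower in LF+CR than in LF, a log2 difference of -1.60 ± 0.26 (adjusted p = 0.00314), and the call held in every alternative tried, with differences from -1.77 to -1.35. Its neighbour Ugt3a2 was lower in all 3 LF+CR libraries than in any LF library, with a difference of -0.38 ± 0.13 that was not called (adjusted p = 0.093). Ugt1a1 and Ugt1a5 lay higher in LF+CR without overlap, by 0.44 ± 0.16 and 1.26 ± 0.50 on the log2 scale, and were not called either (adjusted p = 0.113 and 0.149).

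Sult2a8 (chr7:14410686-14446780) was 47.1, 45.1 and 119 RPKM in LF, 3.48, 17.9 and 15.8 in LF+CR, 80.5, 74.5 and 95.6 in LF+Ex, 115, 56.2 and 128 in HF, 138, 162 and 61.7 in HF+CR, and 74.6, 53.7 and 85.03 in HF+Ex. The highest LF+CR library was at 17.9 RPKM and the lowest of the other 15 at 45.1 RPKM, with LF 3 well above LF 1 and LF 2. The LF+CR mean was 12.4 ± 7.78 RPKM against 70.4 ± 42.02 RPKM in LF, 5.69-fold lower, with a log2 difference of -2.52 ± 0.52 (adjusted p = 0.0109). Leaving out the 3 libraries with the highest pancreatic marker sums, which were LF+CR 1, HF+CR 1 and LF+Ex 1, gave -1.85 and ended the call (adjusted p = 0.0704). The Sult2a8 call also ended with only the 2 groups compared (adjusted p = 0.0837). Sult1d1 (chr5:87554650-87569006), a catecholamine sulfotransferase of mice, was 15.1, 15.2 and 26.3 RPKM in LF, 35.4, 47.9 and 29.6 in LF+CR, 15.5, 24.5 and 16.7 in LF+Ex, 14.97, 19.7 and 25.4 in HF, 23.3, 21.7 and 15.7 in HF+CR, and 22.6, 18.7 and 23.7 in HF+Ex. The 3 LF+CR libraries were the highest of the 18. The LF+CR mean was 1.997-fold that of LF, a log2 difference of 0.98 ± 0.25 (adjusted p = 0.0312). This call was lost without LF 1, LF 2, LF+CR 1 or LF+CR 2, at adjusted p-values of 0.0799 to 0.137, and with no filter on low values (adjusted p = 0.0519). It was also lost with only the 2 groups compared. No read-sharing with another transcript was found for either gene at 50 bases.

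Ces3a (chr8:105048576-105061928), a liver carboxylesterase, was 311, 275 and 539.8 RPKM in LF, 11.4, 55.9 and 67.6 in LF+CR, 607, 563 and 562 in LF+Ex, 607, 418 and 522 in HF, 835, 758 and 409.9 in HF+CR, and 473, 424 and 370.0 in HF+Ex. The LF+CR libraries reached at most 67.6 RPKM, and the other 15 had at least 275 RPKM. The LF+CR mean was 44.95 ± 29.7 RPKM against 375 ± 144 RPKM in LF, 8.34-fold lower, with a log2 difference of -3.30 ± 0.47 (adjusted p = 0.00137). The call held in every alternative, and without the libraries with pancreatic transcripts the difference was -2.53 (adjusted p = 0.002). Ces3a shares 30.9% of its windows with Ces3b, which was not called (difference -0.50 ± 0.60, adjusted p = 0.663). In LF+CR 1 Ces3b was the more abundant of the pair, at 21.1 RPKM against 11.4 RPKM, and in LF+CR 3 it was again, at 84.8 RPKM against 67.6 RPKM.

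Ces1f (chr8:93256236-93279766) was 249.7, 231 and 338 RPKM in LF, 113, 187 and 172 in LF+CR, 247, 219 and 233 in LF+Ex, 242, 209 and 233 in HF, 251, 254 and 167 in HF+CR, and 156, 172 and 189 in HF+Ex. The highest LF+CR library lay below the lowest LF library but inside the range of HF+CR and HF+Ex. The log2 difference was -0.80 ± 0.20 (adjusted p = 0.026), and it was not called without LF 1, LF 3 or LF+CR 1, at adjusted p-values of 0.06 to 0.114, after median-of-ratios scaling (adjusted p = 0.0501) or with only the 2 groups compared (adjusted p = 0.132). Ces2c, which cleaves acylglycerols as well as drugs, was 7.89, 9.90 and 7.91 RPKM in LF, 2.30, 3.62 and 6.74 in LF+CR, 5.42, 8.89 and 9.12 in LF+Ex, 6.60, 8.80 and 5.42 in HF, 9.91, 7.97 and 15.1 in HF+CR, and 11.3, 7.82 and 8.27 in HF+Ex. Its LF+CR libraries were all below the LF libraries, a difference of -0.96 ± 0.29 that missed the threshold (adjusted p = 0.0592), and 42.2% of its windows recur in other genes, mainly the pseudogene Ces2d-ps. Ces2a was 88.7, 107 and 125 RPKM in LF, 147, 149.8 and 172 in LF+CR, 111, 142 and 93.3 in LF+Ex, 76.2, 53.5 and 72.1 in HF, 121, 155 and 78.9 in HF+CR, and 83.8, 55.9 and 75.7 in HF+Ex. It lay higher in LF+CR than in LF without overlap, by 0.55 ± 0.23, and was not called (adjusted p = 0.173). Ces1b lay higher in the same way, by 0.53 ± 0.24 (adjusted p = 0.209). Of the 5 calls, those of Sult2a8, Sult1d1 and Ces1f ended without the 3 libraries with pancreatic transcripts, where 2.08% of all tested genes were called. That of Sult1d1 ended without LF 2 and HF+CR 3, the libraries with the highest bile duct marker sums.

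**Figure D3:**
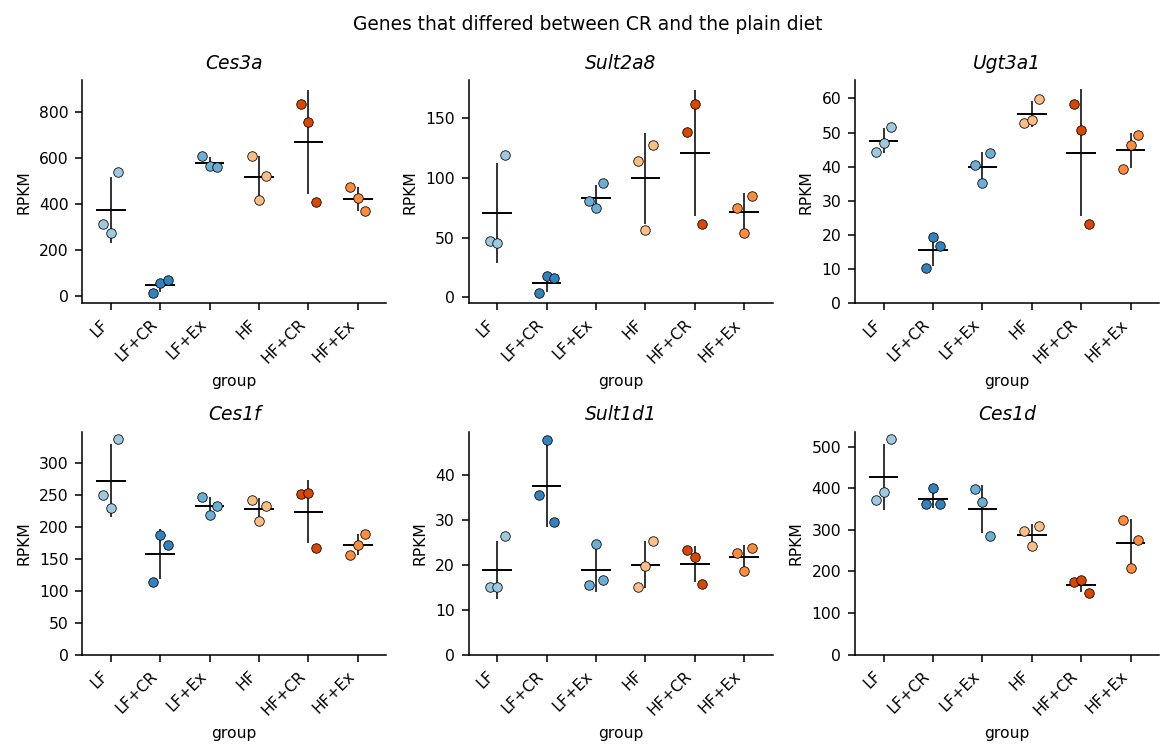
Points are the RPKM of single libraries in the 6 groups, with horizontal lines at the group mean and vertical bars of 1 SD, n = 3, on linear axes from or just under 0. The LF+CR points of Ces3a, Sult2a8 and Ugt3a1 lie below all others, those of Sult1d1 lie above, and the HF+CR points of Ces1d lie below all others.

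CR on the HF diet gave another picture. Of the 32 tested members only Ces1d fell, where 1.4% of all tested genes were called, 0.628% higher and 0.772% lower. The median difference was 0.02 over the members and 0.01 over all genes. Ces1d (chr8:93166072-93197804), a hydrolase of stored triacylglycerol in mouse liver, was 371, 391 and 517 RPKM in LF, 362, 400.3 and 362 in LF+CR, 398, 366 and 285 in LF+Ex, 296, 261 and 309 in HF, 174, 179 and 147 in HF+CR, and 324, 208 and 275 in HF+Ex. The 3 HF+CR libraries were the lowest of the 18. The mean was 167 ± 17.2 RPKM in HF+CR and 289 ± 24.5 RPKM in HF, a log2 difference of -0.79 ± 0.17 (adjusted p = 0.0338). Leaving out any 1 of the 3 HF or 3 HF+CR libraries ended the call, at adjusted p-values of 0.0606 to 0.12. It also ended with no filter (adjusted p = 0.0538), after median-of-ratios scaling (adjusted p = 0.0676), with only the 2 groups compared and without the libraries with pancreatic transcripts. Without LF 2 and HF+CR 3 it ended as well, and 3 other members were called, Ces2a higher and Sult1c2 and Ugt1a9 lower in HF+CR. In that setting 3.77% of all tested genes were called.

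The genes lowered by CR on LF were not called on HF. Ces3a was 516 ± 94.2 RPKM in HF and 667 ± 226 RPKM in HF+CR, a difference of 0.32 ± 0.47 (adjusted p = 0.829). Sult2a8 was 99.6 ± 38.1 RPKM and 121 ± 52.5 RPKM, a difference of 0.25 ± 0.52 (adjusted p = 0.888). Ugt3a1 was 55.4 ± 3.80 RPKM and 44.2 ± 18.5 RPKM, a difference of -0.42 ± 0.26 (adjusted p = 0.514). In all 3 genes HF+CR 3, the library with the highest bile duct marker sum, was the lowest of its group. Sult1c2 was lower in every HF+CR library than in any HF library, 3.32 ± 0.229 RPKM against 7.72 ± 1.15 RPKM, without a call (difference -1.004 ± 0.29, adjusted p = 0.117). Ces2a was higher in every HF+CR library than in any HF library, again without a call (difference 0.77 ± 0.23, adjusted p = 0.138).

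Whether the CR difference itself depended on the diet was tested as an interaction, which called 1.02% of all tested genes and 1 of the 32 members. For Ces3a the CR difference was higher by 3.63 ± 0.67 on the log2 scale on HF than on LF (adjusted p = 0.0151). Without HF 2 or without HF+CR 1 the adjusted p was 0.0508 and 0.0539. Sult2a8 had an interaction of 2.77 ± 0.73 and Ces2c of 1.53 ± 0.41, and neither was called (adjusted p = 0.0986 and 0.098). Without LF 2 and HF+CR 3, the 2 libraries with the highest bile duct marker sums, 4 members were called, Ces3a, Sult2a8, Ugt3a1 and Ces1f. In that setting 2.61% of all tested genes were called. In all 18 libraries the interaction of Ugt3a1 was 1.18 ± 0.37 (adjusted p = 0.185), that of Sult1d1 -0.96 ± 0.35 (adjusted p = 0.288), that of Ces1f 0.75 ± 0.28 (adjusted p = 0.285) and that of Ces1d -0.62 ± 0.24 (adjusted p = 0.317). A difference between the diets was not shown for these 4 genes.

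**Figure D4:**
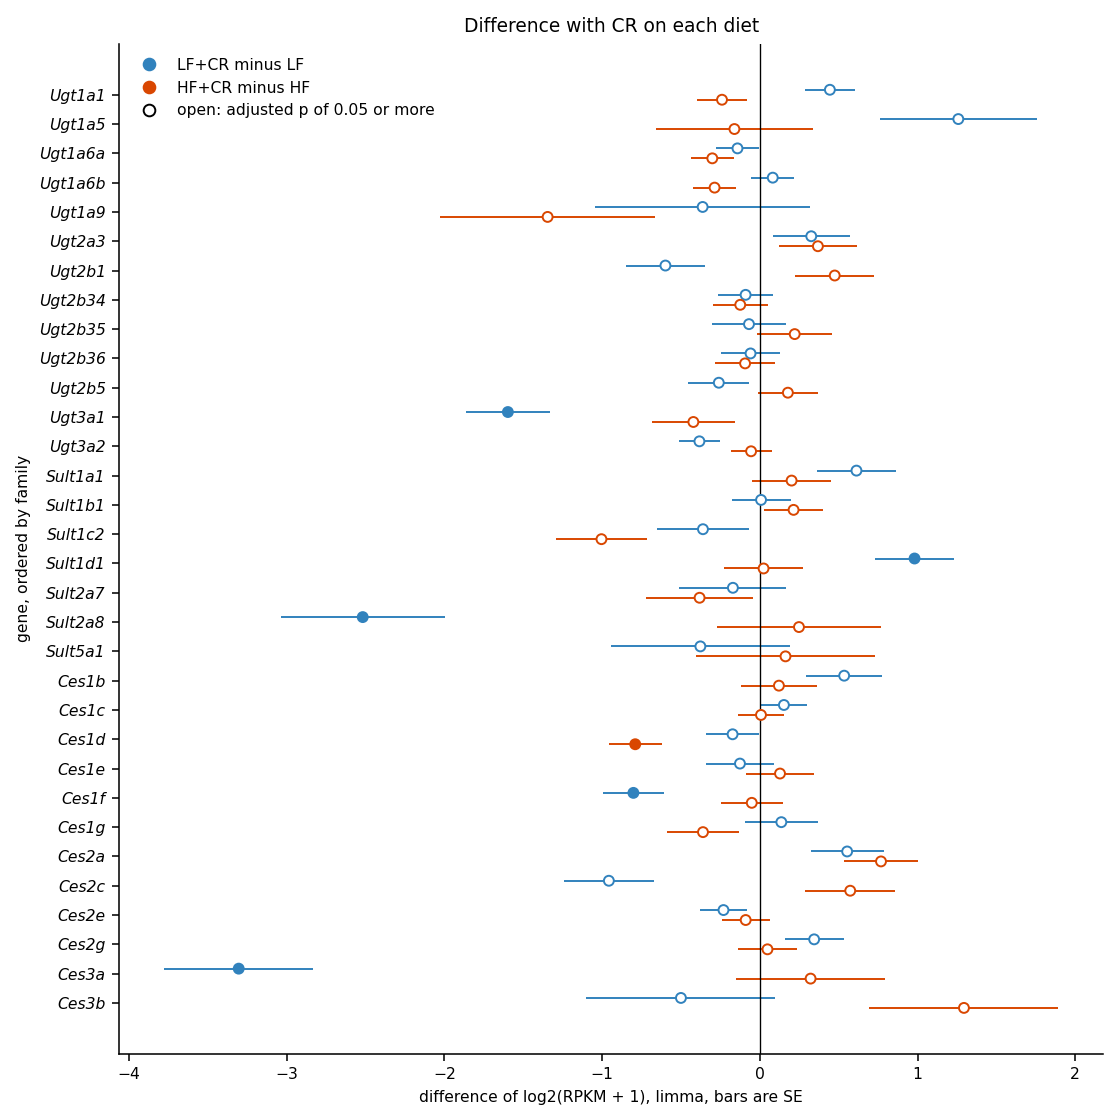
Circles give the difference of log2(RPKM + 1) with CR for each of the 32 tested members, in blue on the LF diet and in orange on the HF diet, with bars of 1 SE from limma; filled circles are genes called at an adjusted p under 0.05. Ces3a and Sult2a8 lie at -3.30 and -2.52 on LF and at 0.32 and 0.25 on HF.

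Between the restricted groups the diet difference was widest. HF+CR against LF+CR called 13 of the 32 members, 8 higher and 5 lower in HF+CR, where 9.77% of all tested genes were called, 4.7% higher and 5.07% lower. Ces3a, Sult2a8, Ugt3a1, Ces2c, Ugt2b1, Sult1b1, Sult5a1 and Ugt3a2 rose, and Ugt1a5, Ces1d, Sult1d1, Ugt1a1 and Ces1c fell. Both directions occurred in every family, with 5 of 13 UDP-glucuronosyltransferases, 4 of 7 sulfotransferases and 4 of 12 carboxylesterases called. The median difference was 0.03 over the members and -0.00 over all genes. This comparison shares the LF+CR libraries with that of LF+CR against LF and the HF+CR libraries with that of HF+CR against HF.

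Ugt1a5 (chr1:88166012-88220002) was 30.4, 10.5 and 22.7 RPKM in LF, 45.7, 39.7 and 60.8 in LF+CR, 11.5, 12.6 and 12.1 in LF+Ex, 6.78, 14.3 and 17.3 in HF, 11.9, 18.2 and 5.26 in HF+CR, and 2.84, 11.05 and 12.8 in HF+Ex. The 3 LF+CR libraries were the highest of the 18, and 64.0% of its windows are shared, mainly with Ugt1a2. The difference was -2.08 ± 0.50 (adjusted p = 0.0155), lost without LF+CR 1 or LF+CR 3 (adjusted p = 0.0502 to 0.0504). Ugt1a1 averaged 278 ± 39.4 RPKM in LF+CR against 165 ± 39.5 RPKM in HF+CR, a difference of -0.77 ± 0.16 (adjusted p = 0.00775). The summed Ugt1a level, which depends less on how reads were split among first exons, was 470.2 ± 28.5 RPKM in LF+CR against 304 ± 47.4 RPKM in HF+CR, without overlap. Ugt2b1 (chr5:86916639-86926503) was 52.98, 56.98 and 85.95 RPKM in LF, 28.96, 53.4 and 47.2 in LF+CR, 102, 76.7 and 90.2 in LF+Ex, 60.8, 52.4 and 68.5 in HF, 113, 89.3 and 58.7 in HF+CR, and 65.4, 50.98 and 53.6 in HF+Ex. HF+CR 1 and LF+Ex 1 were the highest libraries and LF+CR 1 the lowest. The rise was 0.99 ± 0.25 (adjusted p = 0.0219), lost without LF+CR 1, HF+CR 1 or HF+CR 2 (adjusted p = 0.069 to 0.115), and no 50-base window of this gene recurs elsewhere. Ugt3a1 rose by 1.39 ± 0.26 (adjusted p = 0.00445) and Ugt3a2 by 0.46 ± 0.13 (adjusted p = 0.037). For Ugt3a2 HF+CR 3 at 94.5 RPKM lay inside the LF+CR range, and the call was lost without any 1 of 5 libraries, LF+CR 1, LF+CR 3, HF+CR 1, HF+CR 2 and HF+Ex 3 (adjusted p = 0.0503 to 0.164), and after median-of-ratios scaling (adjusted p = 0.056).

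Sult2a8 averaged 121 ± 52.5 RPKM in HF+CR against 12.4 ± 7.78 RPKM in LF+CR, 9.76-fold higher. The rise was 3.33 ± 0.52 (adjusted p = 0.00117) on the log2 scale and was called in every alternative tried. Sult1b1 (chr5:87513327-87538195), which sulfates thyroid hormones, was 3.82, 2.69 and 5.64 RPKM in LF, 3.003, 4.42 and 4.53 in LF+CR, 3.10, 4.75 and 3.72 in LF+Ex, 5.87, 6.05 and 7.22 in HF, 7.68, 8.22 and 6.77 in HF+CR, and 5.50, 5.27 and 6.03 in HF+Ex. All HF, HF+CR and HF+Ex libraries but HF+Ex 1 and HF+Ex 2 lay above every LF, LF+CR and LF+Ex library. The rise was 0.79 ± 0.19 (adjusted p = 0.0149), lost without LF+CR 1, HF+CR 1 or HF+CR 2 (adjusted p = 0.0571 to 0.0823). For Sult5a1 (chr8:123142843-123158914) HF+CR 1 was the highest library of all and LF+CR 1 was listed at 0. Its difference was 1.99 ± 0.57 (adjusted p = 0.0391), lost without LF+CR 1, LF+CR 2, LF+CR 3, HF+CR 1, HF+CR 2 or HF+Ex 3 (adjusted p = 0.0502 to 0.168), and with no filter on low values (adjusted p = 0.0665). Sult1d1 fell by 0.86 ± 0.25 (adjusted p = 0.0419) from 37.6 ± 9.32 in LF+CR to 20.2 ± 4.01 RPKM in HF+CR, a call lost without LF+CR 1, LF+CR 2, HF 2, HF+CR 1, HF+CR 2, HF+CR 3, HF+Ex 1 or HF+Ex 3 (adjusted p = 0.0527 to 0.163). It was also lost with no filter (adjusted p = 0.0662) and after median-of-ratios scaling (adjusted p = 0.0562).

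Ces3a averaged 667 ± 226 RPKM in HF+CR, 14.8-fold its LF+CR level, a rise of 4.13 ± 0.47 (adjusted p = 0.000145) that was called in every alternative tried. Ces3b lay higher as well, 155 ± 79.2 RPKM against 48.01 ± 32.95 RPKM, with overlap and without a call (difference 1.74 ± 0.60, adjusted p = 0.0781). Ces2c averaged 10.99 ± 3.68 RPKM in HF+CR against 4.22 ± 2.28 RPKM in LF+CR. The rise was 1.25 ± 0.29 (adjusted p = 0.0129), lost without LF+CR 1 (adjusted p = 0.0709). Ces1d fell from 375 ± 22.1 RPKM to 167 ± 17.2 RPKM, a difference of -1.17 ± 0.17 (adjusted p = 0.000715), and was called in every alternative. Ces1c fell from 1558 ± 100.3 RPKM to 1102 ± 179 RPKM, a difference of -0.51 ± 0.15 (adjusted p = 0.0413) and a call lost without LF+CR 1, LF+CR 2, LF+CR 3, LF+Ex 1, HF 1, HF 2, HF+CR 1, HF+CR 3, HF+Ex 1 or HF+Ex 3 (adjusted p = 0.0514 to 0.129), with no filter (adjusted p = 0.0623) and after median-of-ratios scaling (adjusted p = 0.0611). Ces1c and Ces1b share part of their sequence, 16.98% and 11.6% of their windows with other genes.

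LF+CR 1 and HF+CR 1 are the libraries with the most pancreatic transcripts. Without them and LF+Ex 1, 3 members were called in HF+CR against LF+CR, Ces3a at 3.16, Sult2a8 at 2.51 and Ces1d at -1.22. In that setting 1.26% of all tested genes were called. Without LF 2 and HF+CR 3 the calls of Ces1c and Sult1d1 ended. With only the 2 groups compared, those of Ugt1a1, Ugt2b1, Ugt3a1, Ugt3a2, Sult1d1, Sult5a1, Ces1c and Ces2c ended. LF+CR 1 was also the lowest library of the 18 for Ces3a, Sult2a8, Ugt3a1, Ces1f, Ces2c and Ugt2b1. The share of the pancreatic transcripts in these low values was not tested.

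**Figure D5:**
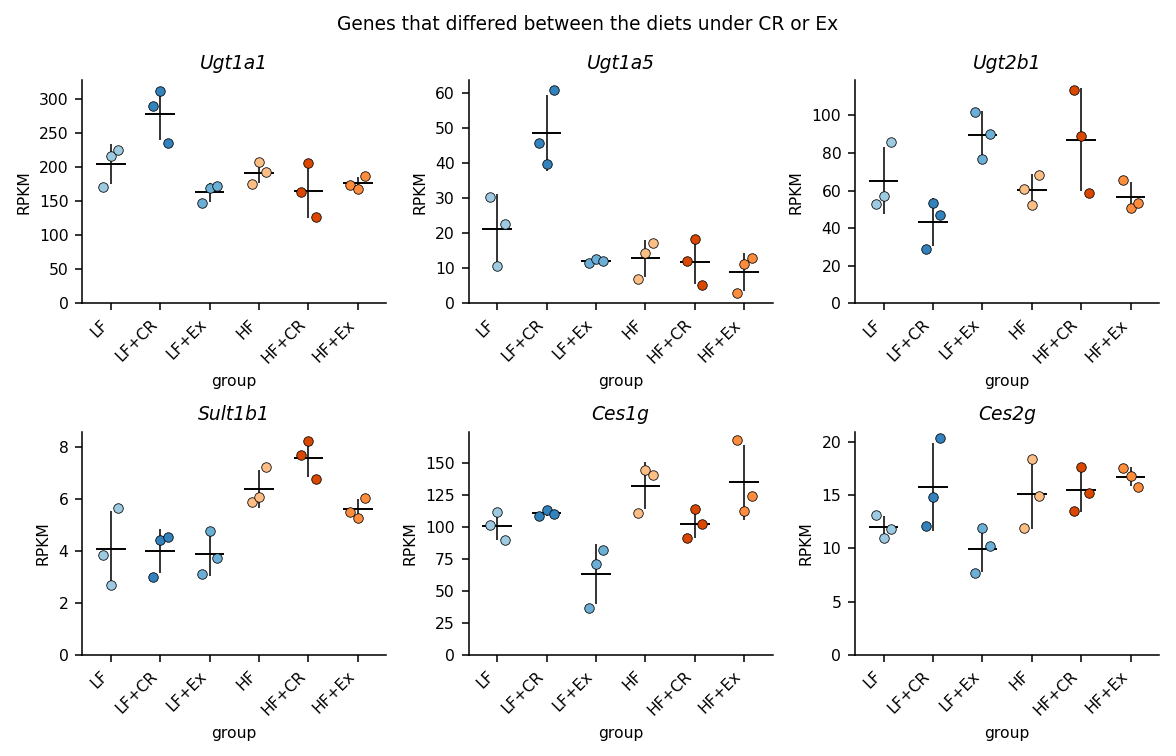
Points are the RPKM of single libraries for 6 members called between the diets under CR or under Ex, with lines at the group mean and bars of 1 SD, n = 3, on linear axes from 0. Ugt1a1 and Ugt1a5 are highest in LF+CR, the 3 highest Sult1b1 means are those of the HF diet, and Ces1g and Ces2g have their lowest mean in LF+Ex.

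Without CR or Ex, limma called 0 of the 32 members in HF against LF, where 0.405% of all tested genes were called. At an unadjusted p under 0.05 there were 6 members, against 1742 of the 10358 genes. The median difference was -0.00 over the members and -0.02 over all genes. Ces1d, Ces2a and Ces1c lay lower in HF than in LF without overlap, with differences of -0.55 ± 0.17, -0.66 ± 0.23 and -0.37 ± 0.15 and adjusted p-values of 0.128, 0.175 and 0.231. Sult1b1 lay higher without overlap by 0.58 ± 0.19, Sult5a1 by 1.45 ± 0.57 and Ugt1a6b by 0.38 ± 0.14, with adjusted p-values of 0.141, 0.215 and 0.182. Ugt3a1 also lay higher without overlap, narrowly, with at most 51.7 RPKM in LF and at least 52.8 RPKM in HF. The share of all tested genes without overlap was not counted. The summed Ces1 level was 2298 ± 283 RPKM in LF and 1838 ± 124 RPKM in HF, without overlap (exact two-sided permutation p = 0.1, the smallest possible).

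Ex gave no call on either diet. In LF+Ex against LF limma called 0 members, 0% of all tested genes being called, and 5 members and 944 genes had an unadjusted p under 0.05. The median was -0.20 over the members and -0.13 over all genes. Scaling by median of ratios moved the median of all genes to 0.01, so members are read against that shift. Ces1g (chr8:93302369-93337209), an esterase linked to lipid handling in mouse liver, was 101, 111 and 89.6 RPKM in LF, 109, 113 and 109.7 in LF+CR, 36.5, 71.2 and 81.7 in LF+Ex, 111, 145 and 141 in HF, 91.5, 114 and 102 in HF+CR, and 168, 113 and 124 in HF+Ex. LF+Ex 1 was by far the lowest, and all LF+Ex libraries lay below all LF libraries. The difference was -0.74 ± 0.23 (adjusted p = 0.512). Ces3a was higher in all LF+Ex than in all LF libraries, by 0.68 ± 0.47, and Sult5a1 likewise, by 1.43 ± 0.57 (adjusted p = 0.597 and 0.519). Ces3b differed by 1.58 ± 0.60, with overlap (adjusted p = 0.519). In HF+Ex against HF limma called 0 members and 0% of all genes, with 0 members and 377 genes at an unadjusted p under 0.05 and medians of -0.13 and -0.02. The Ex by diet interaction called 0 members and 0% of genes, with 1 member, Ces1g at 0.76 ± 0.32, and 525 genes at an unadjusted p under 0.05.

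Between the exercised groups 2 carboxylesterases rose with the HF diet. HF+Ex against LF+Ex called 2 of 32 members, both higher, where 5.15% of all tested genes were called, 4.13% higher and 1.01% lower. The median was 0.14 over the members and 0.08 over all genes. Ces1g averaged 135 ± 29.1 RPKM in HF+Ex and 63.1 ± 23.7 RPKM in LF+Ex, a rise of 1.14 ± 0.23 (adjusted p = 0.0185), lost without LF+Ex 1, HF+Ex 1 or HF+Ex 3 (adjusted p = 0.0513 to 0.0637). That call was also lost with only the 2 groups compared. Ces2g (chr8:104961596-104969537) was 13.2, 10.98 and 11.8 RPKM in LF, 12.1, 14.9 and 20.4 in LF+CR, 7.66, 11.97 and 10.2 in LF+Ex, 11.9, 18.4 and 14.96 in HF, 13.6, 17.7 and 15.3 in HF+CR, and 17.6, 16.9 and 15.8 in HF+Ex. The LF+Ex libraries were among the lowest and did not overlap HF+Ex. The rise was 0.72 ± 0.19 (adjusted p = 0.0396), lost without LF+CR 2, LF+Ex 1, LF+Ex 2, LF+Ex 3, HF+Ex 1, HF+Ex 2 or HF+Ex 3 (adjusted p = 0.0532 to 0.17), with no filter (adjusted p = 0.0566) and after median-of-ratios scaling at 0.61 (adjusted p = 0.0738). Ces2a lay lower in HF+Ex without overlap, a difference of -0.68 ± 0.23 without a call (adjusted p = 0.0974). Both calls ended without the 3 libraries with pancreatic transcripts, where 0.319% of all tested genes were called.

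The lists here and below are to be read beside the shares and medians of all tested genes. Of these, 6.5% were called in LF+CR against LF (median 0.00) and 1.4% in HF+CR against HF (median 0.01). The shares were 9.77% in HF+CR against LF+CR (median -0.00) and 5.15% in HF+Ex against LF+Ex (median 0.08). Genes that supply the cofactors or undo the conjugation were read from a list of 21, of which 17 were tested. In LF+CR against LF 1 rose and 1 fell, with a median of -0.03. Papss2, which makes the sulfonate donor PAPS, went from 21.8 ± 7.499 RPKM in LF to 43.8 ± 7.34 RPKM in LF+CR, a rise of 1.01 ± 0.22 (adjusted p = 0.0127). Arsa, a lysosomal sulfatase, fell by 1.52 ± 0.20 (adjusted p = 0.000837) from 25.8 ± 5.70 RPKM to 8.46 ± 2.66 RPKM. Between the restricted groups 3 of the 17 rose with the HF diet, Arsa by 1.07 ± 0.20 (adjusted p = 0.00395), the sulfate transporter Slc26a1 by 0.69 ± 0.17 (adjusted p = 0.0208) and the nucleotide sugar transporter Slc35d2 by 0.52 ± 0.13 (adjusted p = 0.0235), with a median of 0.14. In HF+Ex against LF+Ex 2 rose, Papss1, the second PAPS synthase, by 0.51 ± 0.14 (adjusted p = 0.049) and Slc35d1, which carries UDP-glucuronic acid into the endoplasmic reticulum, by 0.56 ± 0.15 (adjusted p = 0.0432), with a median of 0.23. In the other comparisons none of the 17 was called. Ugdh, which makes UDP-glucuronic acid, was 69.8 ± 34.7 RPKM in LF and 77.8 ± 8.48 RPKM in LF+CR and was not called in any comparison.

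Of 17 tested hydrolases outside the Ces family, 2 fell in LF+CR against LF, with a median of -0.20. Mgll, the monoacylglycerol lipase, fell by 1.14 ± 0.23 (adjusted p = 0.0104) and Cmbl, a carboxymethylenebutenolidase-like hydrolase, fell by 0.70 ± 0.16 (adjusted p = 0.0202). In HF+CR against LF+CR Ephx2, the soluble epoxide hydrolase, rose by 0.65 ± 0.19 (adjusted p = 0.0407), and no hydrolase was called elsewhere. Of 19 regulators tested, the receptor CAR, encoded by Nr1i3, fell with CR on both diets, with differences of -0.67 ± 0.18 (adjusted p = 0.0379) on LF and -1.0003 ± 0.18 (adjusted p = 0.0173) on HF. Between the restricted groups 3 regulators fell with the HF diet, with differences of -0.52 ± 0.12 (adjusted p = 0.0149) for Hnf4a, -0.68 ± 0.19 (adjusted p = 0.0348) for the receptor PXR gene Nr1i2 and -1.67 ± 0.38 (adjusted p = 0.013) for Por, the electron donor of the cytochromes P450. In HF+Ex against LF+Ex Hnf4a fell by 0.53 ± 0.12 (adjusted p = 0.0257). The medians of the 19 lay between -0.13 and 0.06 in all 9 comparisons.

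Of 10 tested transporters that export or take up conjugates, 3 were called in LF+CR against LF. Abcc3, which pumps glucuronides from the hepatocyte into blood, fell by 0.90 ± 0.23 (adjusted p = 0.0304), the uptake carrier Slco1a1 fell by 3.45 ± 0.80 (adjusted p = 0.0196) and the export pump Abcb1a rose by 1.401 ± 0.35 (adjusted p = 0.0304). Slco1a1 rose with CR on HF by 4.39 ± 0.80 (adjusted p = 0.0176), and its CR by diet interaction was 7.84 ± 1.13 (adjusted p = 0.00307). Between HF+CR and LF+CR Slco1a1 rose by 5.29 ± 0.80 (adjusted p = 0.000919) and Abcg2, which exports sulfate conjugates, by 0.73 ± 0.17 (adjusted p = 0.0149), while Abcb1a fell by 1.79 ± 0.35 (adjusted p = 0.00553) and Slco1a4 fell by 2.34 ± 0.29 (adjusted p = 0.000233). In HF+Ex against LF+Ex Slco1a1 fell by 4.52 ± 0.80 (adjusted p = 0.00941).

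Among targets of the xenobiotic receptors, 11 CAR targets were tested, of which Cyp2b10 rose by 1.59 ± 0.40 (adjusted p = 0.0291) and Abcc3 fell in LF+CR against LF, with a median of 1.09. Between HF+CR and LF+CR 5 CAR targets fell, Cyp2a4, Cyp2b10, Cyp2b9, Cyp2c55 and Por, with a median of -1.58, and in HF+Ex against LF+Ex Cyp2b10 and Cyp2b9 rose, with a median of 1.05. Of 7 PXR targets Abcb1a rose in LF+CR against LF, and Abcb1a and Slco1a4 fell in HF+CR against LF+CR. Of 3 AHR targets Tiparp rose in LF+CR against LF and fell in HF+CR against LF+CR. No other call was made in these 3 lists. The PPAR alpha targets that fell in LF+CR against LF included Acaa1b, Acot1, Cpt1a and Vnn1, and Acot1 also fell in HF+Ex against LF+Ex.

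Several mouse sulfotransferases and carboxylesterases are sex-biased in liver, and lists of sex-biased liver genes were counted beside them. The lists also name Ugt2b38, Sult1e1, Sult2a1, Sult2a2 and Sult3a1. None of these was tested, so every gene counted lay outside the 3 families. In LF+CR against LF 11 of 20 tested male-biased genes fell, with a median of -2.02, and 10 of 18 tested female-biased genes rose, with a median of 1.398. In HF+CR against LF+CR, which shares the LF+CR libraries and has them on the other side, 17 of the 20 male-biased genes rose, with a median of 3.52, and 14 of the 18 female-biased genes fell, with a median of -2.68. In HF+CR against HF 3 male-biased genes rose and 4 female-biased genes fell, with medians of 1.12 and -0.80. The CR by diet interaction called 10 of the 20 male-biased genes, all higher, with a list median of 3.77. It called 8 of the 18 female-biased genes, all lower, with a list median of -2.66, and 1.02% of all tested genes. In HF+Ex against LF+Ex 7 male-biased genes fell, with a median of -1.403, and 4 female-biased genes rose, with a median of 0.19. In HF against LF the male-biased Cyp4a12b fell by 2.78 ± 0.55 (adjusted p = 0.0455) and the female-biased Cyp2b13 rose by 3.06 ± 0.40 (adjusted p = 0.014), and neither list had a call with Ex on either diet. Mup20, a male-biased urinary protein gene, was 8191 ± 3172 RPKM in LF and 297 ± 180.2 RPKM in LF+CR, and Cux2, a female-specific transcription factor gene of mouse liver, was 0.220 ± 0.210 RPKM and 6.84 ± 2.21 RPKM. The female-biased sulfotransferase Sult2a1, with 33.2% of its windows shared, was listed at 0 in LF+CR, which can be a failed estimate, and Sult3a1 reached 0.0289 RPKM in 1 LF+CR library. The low LF+CR levels of Ces3a, Sult2a8 and Ugt3a1 were in libraries in which the 11 male-biased genes had fallen. In HF against LF the male-biased list had a median of -0.18, and Cyp4a12b was its 1 call among the 20 tested. Single genes of the list had group means on both sides of that of LF in HF and in HF+Ex, and the genes given are examples. Cyp2d9 was 439 ± 148 RPKM in LF, 512 ± 139 RPKM in HF and 470 ± 83.9 RPKM in HF+Ex. Selenbp2 was 5.54 ± 1.28, 9.20 ± 4.64 and 18.3 ± 8.44 RPKM in the same order. Slco1a1 was 17.7 ± 19.6 RPKM in LF, 1.36 ± 1.26 RPKM in HF and 1.14 ± 1.10 RPKM in HF+Ex, without a call in HF against LF (adjusted p = 0.131). Mup20 was 6785 ± 2448 RPKM in HF and 6822 ± 1348 RPKM in HF+Ex. Ces3a was 516 ± 94.2 RPKM in HF and 422 ± 51.8 RPKM in HF+Ex. The part of the sex-biased genes in the members' levels was not tested.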

How the data were processed

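PolyA RNA was extracted with Trizol from flash-frozen livers and made into Illumina libraries, per the labels. The authors deposited RPKM per RefSeq transcript for each of the 18 libraries, made with TopHat 1.4.1 and Cufflinks 1.3.0 on mm10, per the submitters' processing notes; the annotation version and the handling of reads shared by similar genes are not given in the sources used here. No counts were used, so no counting interval could be given, and depth is an estimate from the steps between the lowest values.

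Symbols were matched for 29438 of the 30582 rows by RefSeq's gene table (GRCm38.p6) and for 179 by GENCODE, and 965 stayed unnamed. A gene was represented by its row of highest mean, a choice that concerned 5 members. The test took the 10358 genes that reached 1 RPKM in 3 or more libraries, on log2(RPKM + 1), a scale that understates changes of low genes. The fit was limma 3.58.1 in R 4.3.3 with a mean per group, 12 residual degrees of freedom, an intensity trend, two-sided tests and Benjamini-Hochberg adjustment over all genes tested. The limma fit alone was tried on simulated data, with independent noise and changes set in LF+CR only. Subfamily sums were compared by exact permutation. Shared sequence was counted as 50-base windows of a transcript that occur in a transcript of another gene.

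The members, lists and libraries left out were chosen with earlier results of these data known. Values in every library are given for the highest member of each subfamily, for called members and for a fixed set of members of known function. Others are given by ranges. Alternatives were a pseudocount of 0.1, no filter, median-of-ratios scaling, summed rows, a replicate block, only the 2 groups compared, and leaving out single libraries or those with pancreatic or bile duct transcripts. Gene positions are RefSeq spans on GRCm38.p6. Results of some genes on the regulator and target lists are not reported here.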

Additional observations from a re-analysis of the deposited data

Results flagged for a closer look

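The Ces3a difference with CR depended on the diet by the test of the difference itself. CR against the plain diet gave -3.30 ± 0.47 on LF and 0.32 ± 0.47 on HF, a difference of differences of 3.63 ± 0.67 on the log2(RPKM + 1) scale (limma, Benjamini-Hochberg adjusted p = 0.0151). The same test called 1.02% of all tested genes and 10 of 20 tested male-biased liver genes, these 10 in the same direction as Ces3a. The Ces3a level was lower in 3 of 3 LF+CR libraries than in every LF library, while on HF the HF+CR values lay both above and below the HF values. HF+CR 3, with 410 RPKM and a bile duct marker sum of 174 RPKM, was the lowest of its group, and LF+CR 1, with 11.4 RPKM and a pancreatic marker sum of 2318 RPKM, was the lowest of all. Without the libraries with pancreatic transcripts the value was 2.65, and without LF 2 and HF+CR 3 it was 4.14, called in both. Without HF 2 or without HF+CR 1 the call was lost, at adjusted p-values of 0.0508 and 0.0539. Other causes were not tested.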

How the results depend on the processing

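Of 22 called gene results, 571 values under alternatives kept their direction without exception, 460 stayed called and 111 did not. Called under every alternative were Ces3a and Ugt3a1 in LF+CR against LF and Ces3a, Sult2a8 and Ces1d in HF+CR against LF+CR. The number of members called in LF+CR against LF, 5, became 2 without the libraries with pancreatic transcripts and 2 with only the 2 groups compared. The share of all tested genes called there went from 6.5% to 2.08% and to 1.93%. In HF+CR against HF the single call became 0 with no filter, 0 after median-of-ratios scaling, 0 without the libraries with pancreatic transcripts and 3 without those with bile duct transcripts. The share went from 1.4% to 1.32% with the scaling, 0.27% without the pancreatic and 3.77% without the bile duct libraries. With no filter it was 0.719%, over 15166 genes. In HF+CR against LF+CR 13 became 3 without the libraries with pancreatic transcripts and 5 with only the 2 groups compared. The share went from 9.77% to 1.26% and to 3.67%. In HF+Ex against LF+Ex 2 became 1 after median-of-ratios scaling and 0 without the libraries with pancreatic transcripts. The share went from 5.15% to 7.5% and to 0.319%. In the CR by diet interaction 1 became 4 without the libraries with bile duct transcripts, and the share 1.02% became 2.61%. Fewer libraries enter all of these but the filter and scaling settings, where the cause was not tested. The scaling moved the median of all genes in LF+Ex against LF from -0.13 to 0.01.

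Leaving out each library in turn gave 3 to 6 calls in LF+CR against LF, 0 to 2 in HF+CR against HF, 5 to 15 in HF+CR against LF+CR, 0 to 3 in HF+Ex against LF+Ex, 0 to 3 in the CR by diet interaction and 0 in the other comparisons. The 5 calls came without LF+CR 1, where 4.65% of all tested genes were called, and the 15 without HF+CR 3, where 11.9% were. Deviations of same-numbered libraries from their group means correlated at -0.49 to 0.31 over 45 pairs, with a median of 0.004 and 10 over 0.1. These correlations had no reference to be set against, so they cannot exclude a pairing by replicate number. LF+CR 1, HF+CR 1 and LF+Ex 1, with the highest pancreatic marker sums, are all replicate 1. With the replicate number as a block, 0 members were called in HF+CR against HF, 5 in LF+CR against LF, 11 in HF+CR against LF+CR, 2 in HF+Ex against LF+Ex and 1 in the interaction. The calls that ended under it were Ces1d in HF+CR against HF (adjusted p = 0.056) and Ces1c and Sult1d1 in HF+CR against LF+CR (adjusted p = 0.054 and 0.0555). The 27 members that were not tested missed the filter of 1 RPKM in 3 libraries, and a 0 among them can be a failed estimate. At the estimated depths 1 read was worth up to 0.0212 RPKM on 2000 bases.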
